A study of Mus musculus with 8 samples.

Results

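The 10 genes described here encode secreted growth factors of blood vessels and their receptors: the vascular endothelial growth factors Vegfa, Vegfb and Vegfc with the receptors Kdr and Flt1, the platelet-derived growth factor Pdgfb with its receptor Pdgfrb, and the angiopoietins Angpt1 and Angpt2 with their receptor Tek. They form a group of ligands and receptors, and their probes were found through the transcript accession that each probe carries. Of the 56605 probes on the array, 14 belonged to these 10 genes, among 22911 genes that could be matched by accession. Vegfa had 4 probes, Vegfc had 2, and the other 8 genes had 1 each.

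The study compared retinas of aged mice that lack Mrp4 with retinas of aged wild-type (WT) mice. Mrp4, also called Abcc4, is a membrane transporter that carries drugs and endogenous compounds out of cells. The labels give 4 samples as homozygous Mrp4 knockout and 4 as wild-type, all retina of mice 46 to 55 weeks old, with no further allele and no treatment in either group. Total RNA of each sample was labelled with Cy3 and hybridized to 1 single-color Agilent array, and all 8 arrays lay on 1 slide. Young mice, which the study also examined by histology, are not among these arrays. According to the methods, tissue came from 3 mice. It is not stated if those mice were pooled within a sample, so the p-values below measure the spread between these 4 and 4 samples, which may be partly technical.

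In a developing or injured retina, VEGF-A released by glia and neurons acts on endothelial cells through KDR (VEGFR2), the main signaling receptor, while FLT1 (VEGFR1) binds the same ligand tightly and largely acts as a trap. PDGF-B from endothelial cells recruits pericytes, which carry PDGFRB and wrap the capillaries. Angiopoietin 1 activates the endothelial receptor TEK (Tie2) and keeps vessels quiet and tight, and angiopoietin 2 mostly opposes it and loosens vessels for sprouting. Hypoxia raises Vegfa through the hypoxia-inducible factors, and the retina of adult mice keeps a resting vasculature in which these genes stay on at a basal level.

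The promoters of the ligand and the receptors on which the results below turn are printed here to show what kind of start each gene has. RefSeq promoter sequences (GRCm38.p6) covered 6 of the 10 genes, and each sequence holds the 250 bases before the start, in the direction of the gene. Capitals mark GGAA or TTCC, the core that ETS factors, which are abundant in endothelial cells, can bind.
Vegfa, chr17:46032378-46032627, minus strand: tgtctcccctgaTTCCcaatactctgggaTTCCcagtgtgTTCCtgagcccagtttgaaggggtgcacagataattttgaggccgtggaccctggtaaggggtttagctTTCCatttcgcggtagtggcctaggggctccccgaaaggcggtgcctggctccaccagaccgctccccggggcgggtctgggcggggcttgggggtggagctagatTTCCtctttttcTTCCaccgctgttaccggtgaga
Kdr, chr5:75978456-75978705, minus strand: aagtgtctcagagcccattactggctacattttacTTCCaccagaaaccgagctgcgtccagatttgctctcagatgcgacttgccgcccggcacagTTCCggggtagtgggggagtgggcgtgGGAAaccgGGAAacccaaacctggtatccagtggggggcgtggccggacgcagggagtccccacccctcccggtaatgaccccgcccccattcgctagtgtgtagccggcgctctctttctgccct
Flt1, chr5:147726012-147726261, minus strand: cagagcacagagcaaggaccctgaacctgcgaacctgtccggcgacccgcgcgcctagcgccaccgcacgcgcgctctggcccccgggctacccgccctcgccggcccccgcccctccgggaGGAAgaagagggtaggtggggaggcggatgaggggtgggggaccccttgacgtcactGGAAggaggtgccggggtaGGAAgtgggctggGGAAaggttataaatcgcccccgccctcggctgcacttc
Tek, chr4:94739039-94739288, plus strand: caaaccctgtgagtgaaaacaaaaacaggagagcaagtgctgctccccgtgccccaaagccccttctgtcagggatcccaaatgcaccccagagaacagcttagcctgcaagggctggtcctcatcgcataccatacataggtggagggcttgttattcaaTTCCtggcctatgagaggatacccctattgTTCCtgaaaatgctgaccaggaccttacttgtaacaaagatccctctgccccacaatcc

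The Vegfa window held 6 matches to GGAA on both strands, those of Kdr and Flt1 held 4 each, and that of Tek held 2. Of the windows not printed, those of Vegfb and Vegfc held 1 each and that of a further start listed for Vegfa held 2. Over all 32851 promoters of the same length, 93.4% held the motif and the median was 3 matches. GGGCGG, the core bound by Sp1, was found on either strand in Vegfa (2), Kdr (2) and Flt1 (3) and not in the Tek window, against 32.7% of all promoters with at least 1 match. These windows of Vegfa, Kdr and Flt1 contained 59.2%, 61.6% and 70.4% G and C, while that of Tek contained 51.2%, close to the median of 52.4% over all promoters. TATAAA, searched on the strand of the gene alone and present in 7.59% of all promoters, lay 31 bases before the start of Flt1. ACGTG, the core of the site for hypoxia-inducible factors, was not found on either strand in any of the 4 printed windows and was present in 16.6% of all promoters. It occurred 1 time before the further start of Vegfa, which lies inside the gene. These matches describe letters within 250 bases and carry no information on binding.

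The signal differed between arrays before normalization, and some of the values below moved with it. The 75th percentile of the processed signal was 1058, 678, 1000 and 1010 on arrays 1 to 4 labelled Mrp4-null and 970, 1082, 706 and 781 on WT arrays 1 to 4. Array 2 labelled Mrp4-null and WT array 3 were thus the dimmest, 1 in each group. Between 66.0% and 69.9% of probes were well above background on single arrays, and no spot was saturated. All 12 photoreceptor markers were measured, with a mean level between 15.93 and 16.05 on every array. Abcc4 itself went against the labels: its probe read 10.75 ± 0.09 (SD, n = 4) under the Mrp4-null label and 6.83 ± 0.29 (SD, n = 4) in WT, a log2 difference of 3.92 (SE 0.14, limma adjusted p = 1.36e-05), and because the deleted part of the gene was not located, each array is named by its label below. Probes of Y-linked genes were above background under the WT label on 3 arrays (2, 3 and 4) and on 0 arrays of the other label. Xist was detected on all 4 arrays of the Mrp4-null label and on WT arrays 1 and 2, so that WT array 2 carried both signals and WT array 1 Xist alone. These signals went largely with the label, so the part of sex in the differences below cannot be told apart from that of the label. It was not tested.

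None of the 10 genes differed between the labels by the test used here. Levels are normalized log2 signals, a difference is the mean of the arrays labelled Mrp4-null minus the mean of WT, and a call required a 1.5-fold change or more together with a limma adjusted p under 0.05 over all 37085 retained probes. A probe was retained if 1 label or both had it well above background throughout. Of the 14 probes, 13 were retained, with at least 1 for each gene, and 0 of 13 were called, against 0.545% of all retained probes. Likewise 0 of 13 had labels that did not overlap, against 4.79% of all, and 2 of 13 had an unadjusted p under 0.05, against 6.46%. The smallest adjusted p was 0.641. In bulk retina, fewer cells of a type and less RNA per cell cannot be told apart, which holds for every vascular gene below.

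Most differences were small. Of the 13 probes, 4 of them of Vegfa, 10 were lower and 3 higher under the Mrp4-null label, and with 1 probe per gene 7 of 10 genes were lower, while 53.2% of all retained probes were. The signs of Vegfa A_52_P638895, Vegfb, Vegfc and Angpt2 turned under some alternatives. The median difference was -0.17 over the member probes and -0.12 over 1 probe per gene, the one with the highest mean signal, beside -0.01 over all retained probes. The largest absolute difference was 0.37. For 7 probes, which represent 6 of the genes, the whole 95% interval of the difference lay within a 1.5-fold change in either direction, and for the other 6 a change of that size was not excluded by the interval. Standard errors ran from 0.08 for Flt1 to 0.35 for Tek, with a median of 0.13 over all retained probes.

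**Figure D1:**
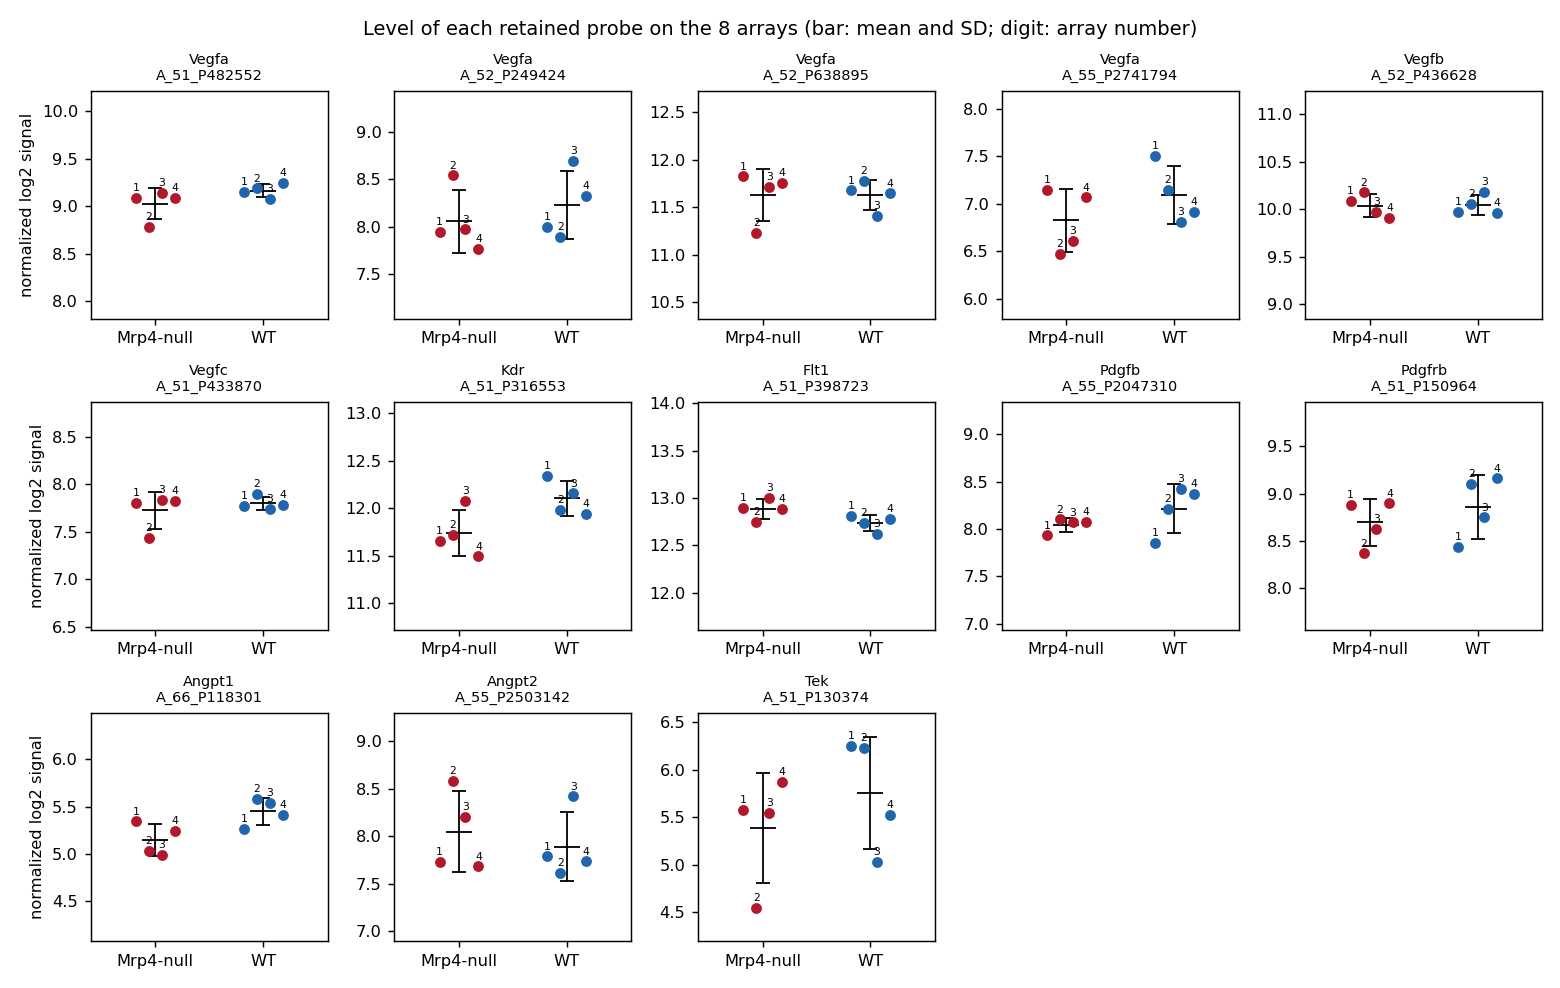
Level of each of the 13 retained probes on the 8 arrays. The vertical axis is the normalized log2 signal and spans the same range in every panel, red points are the arrays labelled Mrp4-null, blue points are WT, digits are array numbers, and the bars give the mean and SD (n = 4). The labels overlap in every panel, and arrays 2 (Mrp4-null) and 3 (WT) are the lowest of their label for Tek and for Vegfa A_52_P638895.

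Vegfa, the main ligand that drives vessel growth, was measured by 4 probes, and none of them was called. The brightest, A_52_P638895, read 11.83, 11.23, 11.72 and 11.75 on arrays 1 to 4 labelled Mrp4-null and 11.68, 11.78, 11.41 and 11.65 on WT arrays 1 to 4. The 2 lowest of these 8 values came from the 2 dimmest arrays. The others overlapped, from 11.72 to 11.83 under the Mrp4-null label and from 11.65 to 11.78 in WT. The means were 11.63 ± 0.27 and 11.63 ± 0.16 (SD, n = 4 each), and the difference was 0.0020 (SE 0.15, 95% interval -0.33 to 0.33). Vegfa therefore lay within 1.26-fold either way by this probe.

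The other 3 Vegfa probes were all lower under the Mrp4-null label by small amounts. A_51_P482552 read 9.09, 8.78, 9.14 and 9.09 against 9.15, 9.19, 9.08 and 9.25, a difference of -0.14 (SE 0.10, 95% interval -0.36 to 0.08). Array 2 labelled Mrp4-null stood below the other 7, and without it the difference was -0.06. A_55_P2741794 ranged from 6.47 to 7.15 and from 6.81 to 7.51 in WT, a difference of -0.27 (SE 0.20, 95% interval -0.72 to 0.19), which was -0.13 without WT array 1 and -0.15 without array 2 labelled Mrp4-null.

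A_52_P249424, the only Vegfa probe that carries a different transcript accession from the rest, ran the other way across the arrays. It read 7.94, 8.54, 7.97 and 7.77 under the Mrp4-null label and 7.99, 7.89, 8.69 and 8.32 in WT, so that the dimmest array of each label gave the highest value of that label. Its difference was -0.17 (SE 0.22, 95% interval -0.66 to 0.32). Single arrays moved it widely, to -0.02 without WT array 3, -0.08 without array 4 labelled Mrp4-null, -0.28 without WT array 2 and -0.33 without array 2 labelled Mrp4-null. Over the 8 arrays its Pearson correlation with A_52_P638895 was -0.87, while the correlations among the remaining 3 probes were between 0.55 and 0.75. The probes of this gene thus disagreed on which arrays were high, although all 4 lacked a called difference between labels.

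Vegfb, a ligand of FLT1 linked to fatty acid transport and survival of vascular cells, had the smallest spread of the ligands. Its level was 9.91 to 10.18 under the Mrp4-null label and 9.96 to 10.18 in WT. The difference was -0.01 (SE 0.09), and its 95% interval reached from -13.8% to 15.0%.

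Vegfc, best known for the growth of lymphatic vessels, which the retina lacks, was detected by 1 of its 2 probes. A_51_P433870 read 7.81, 7.44, 7.84 and 7.83 against 7.77, 7.90, 7.74 and 7.78, a difference of -0.07 (SE 0.11, 95% interval -0.31 to 0.17). Apart from array 2 labelled Mrp4-null, the values fell between 7.74 and 7.90. The second probe, A_55_P2745057, was well above background on 2 arrays labelled Mrp4-null and 0 WT arrays, with processed signals between 5.15 and 14.5, and was not tested.

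Kdr, the receptor that carries most of the VEGF-A signal in endothelial cells, was lower under the Mrp4-null label without passing the adjusted test. It read 11.66, 11.72, 12.08 and 11.49 under the Mrp4-null label and 12.34, 11.98, 12.16 and 11.94 in WT. Only array 3 labelled Mrp4-null, at 12.08, entered the WT range. The means were 11.74 ± 0.25 and 12.10 ± 0.19 (SD, n = 4 each), a difference of -0.37 (SE 0.14) or -22.4%, with a 95% interval from -38.2% to -2.73%. Its limma p was 0.0319 before adjustment and 0.670 after it. Leaving out single arrays gave differences from -0.48, without array 3 labelled Mrp4-null, to -0.29, without array 4 of that label or WT array 1.

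Flt1, the decoy-like VEGF receptor, was higher under the Mrp4-null label by a smaller amount. It read 12.90, 12.75, 13.00 and 12.89 against 12.81, 12.74, 12.62 and 12.78. The lowest value with the Mrp4-null label lay inside the WT range and the other 3 lay above it. The difference was 0.14 (SE 0.08), or 10.5% with a 95% interval from -3.24% to 26.3%, and the adjusted p was 0.951. No difference between the 2 receptors' changes was tested.

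Pdgfb, the endothelial ligand that holds pericytes at the vessel wall, spanned 7.93 to 8.10 under the Mrp4-null label. In WT it read 7.86 on array 1 and 8.21, 8.42 and 8.37 on arrays 2 to 4. WT array 1 was thus the lowest of all 8, and the other WT arrays lay above every array labelled Mrp4-null. The difference was -0.17 (SE 0.13, 95% interval -0.46 to 0.12), and it was -0.29 without WT array 1 and -0.10 without WT array 3.

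Pdgfrb, the receptor of pericytes, read 8.88, 8.37, 8.63 and 8.90 against 8.44, 9.10, 8.75 and 9.16. Its difference was -0.17 (SE 0.19, 95% interval -0.59 to 0.26). As with Pdgfb, WT array 1 was the lowest of its label, and without it the difference was -0.31. It was -0.06 without array 2 labelled Mrp4-null, -0.07 without WT array 4 and -0.09 without WT array 2.

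Angpt1, the agonist of TEK made by pericytes and other perivascular cells, was dim and had the lowest adjusted p of the 10 genes. It read 5.34, 5.03, 4.99 and 5.24 under the Mrp4-null label and 5.26, 5.58, 5.54 and 5.41 in WT, where processed signals were between 34.7 and 53.1. The labels overlapped between 5.26 and 5.34 alone. The difference was -0.30 (SE 0.11, 95% interval -0.55 to -0.04), with a limma p of 0.0279 before adjustment and 0.641 after it. With normexp background correction the difference was -0.10.

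Angpt2, which sprouting endothelial cells release, read 7.73, 8.58, 8.20 and 7.68 under the Mrp4-null label and 7.79, 7.61, 8.42 and 7.74 in WT. Array 2 labelled Mrp4-null and WT array 3 held the 2 highest values. The difference was 0.16 (SE 0.24), and its 95% interval, from -0.39 to 0.71, did not exclude a rise of 63.8%. Without array 2 labelled Mrp4-null the difference was -0.02, so that its direction rested on that array.

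Tek, the angiopoietin receptor, had the widest spread of the 10 genes. It read 5.58, 4.54, 5.54 and 5.88 under the Mrp4-null label and 6.25, 6.23, 5.03 and 5.53 in WT. The 2 dimmest arrays gave the lowest value of each label, 4.54 and 5.03. The difference was -0.37 (SE 0.35, 95% interval -1.18 to 0.43), so that neither a fall to 0.443 of the WT level nor a 1.34-fold rise was excluded. It was -0.10 without array 2 labelled Mrp4-null and -0.62 without WT array 3.

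**Figure D2:**
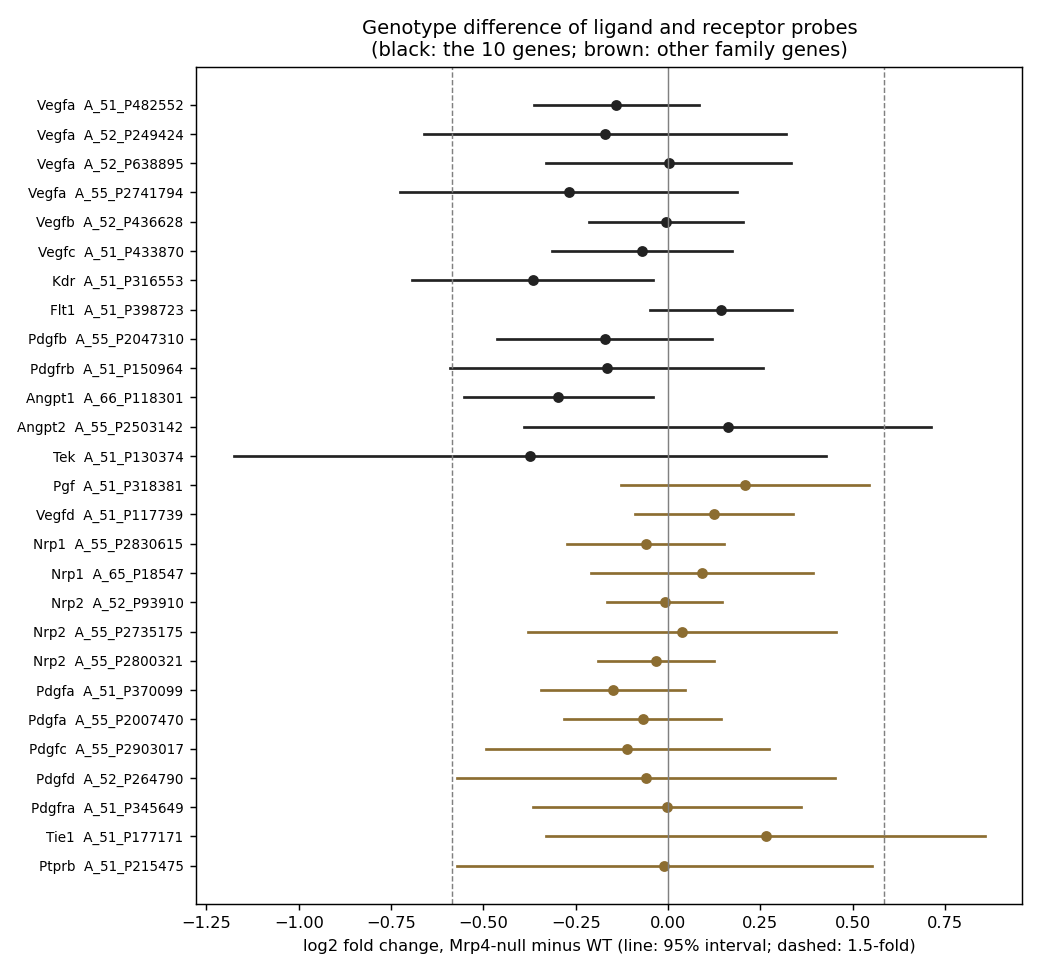
Difference between labels for each retained probe of the 10 genes (black) and of 10 other genes of the same families (brown). The horizontal axis is the log2 fold change, Mrp4-null minus WT, points are limma estimates, lines are 95% intervals (n = 4 and 4), and dashed lines mark a 1.5-fold change. The intervals of Kdr and Angpt1 alone exclude 0 before adjustment, and that of Tek is the widest.

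The levels of Tek and of 2 Vegfa probes, with opposite signs, moved with the overall signal of the array. This relation was examined after the arrays had been seen. A limma fit with the label and the log2 of the 75th percentile gave a slope per doubling of that percentile, adjusted over all retained probes. The slope passed an adjusted p of 0.05 for 3 of the 13 probes, against 6.56% of all retained probes, of which 850 had a positive and 1581 a negative slope. At an unadjusted p under 0.05 it was 6 of 13, against 30.8% of all.

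Tek had the steepest slope of the 13, 1.93 per doubling (SE 0.24, adjusted p = 0.0239). Vegfa A_52_P638895 rose by 0.71 (SE 0.15, adjusted p = 0.0408), and Vegfa A_52_P249424 fell by 1.15 per doubling (SE 0.17, adjusted p = 0.0267). Angpt2 had a slope of -1.12 (SE 0.30) that did not pass (adjusted p = 0.0633), though it did with normexp correction (-0.91) and without WT array 4 (-1.27). For Kdr the slope was 0.02 (SE 0.29).

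The calls of these slopes did not stand without some arrays. The call was lost for all 3 probes without array 1, 2 or 4 labelled Mrp4-null, without WT array 2 or 3, and without both dimmest arrays together, and it was lost for Vegfa A_52_P638895 without array 3 labelled Mrp4-null. When single arrays were left out, the slope of Tek was 1.76 to 2.07, that of Vegfa A_52_P249424 was -1.22 to -1.03 and that of Vegfa A_52_P638895 was 0.505 to 0.793. Without both dimmest arrays these slopes were 1.52, -0.89 and 0.28, the last of which was the most reduced. With the percentile in the model, the difference of Tek between labels was -0.53 (SE 0.12, adjusted p = 0.169), that of Angpt2 was 0.25, and 0 of the 13 probes were called. Whether RNA quality, RNA amount or the makeup of the tissue moved with the signal was not tested.

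**Figure D3:**
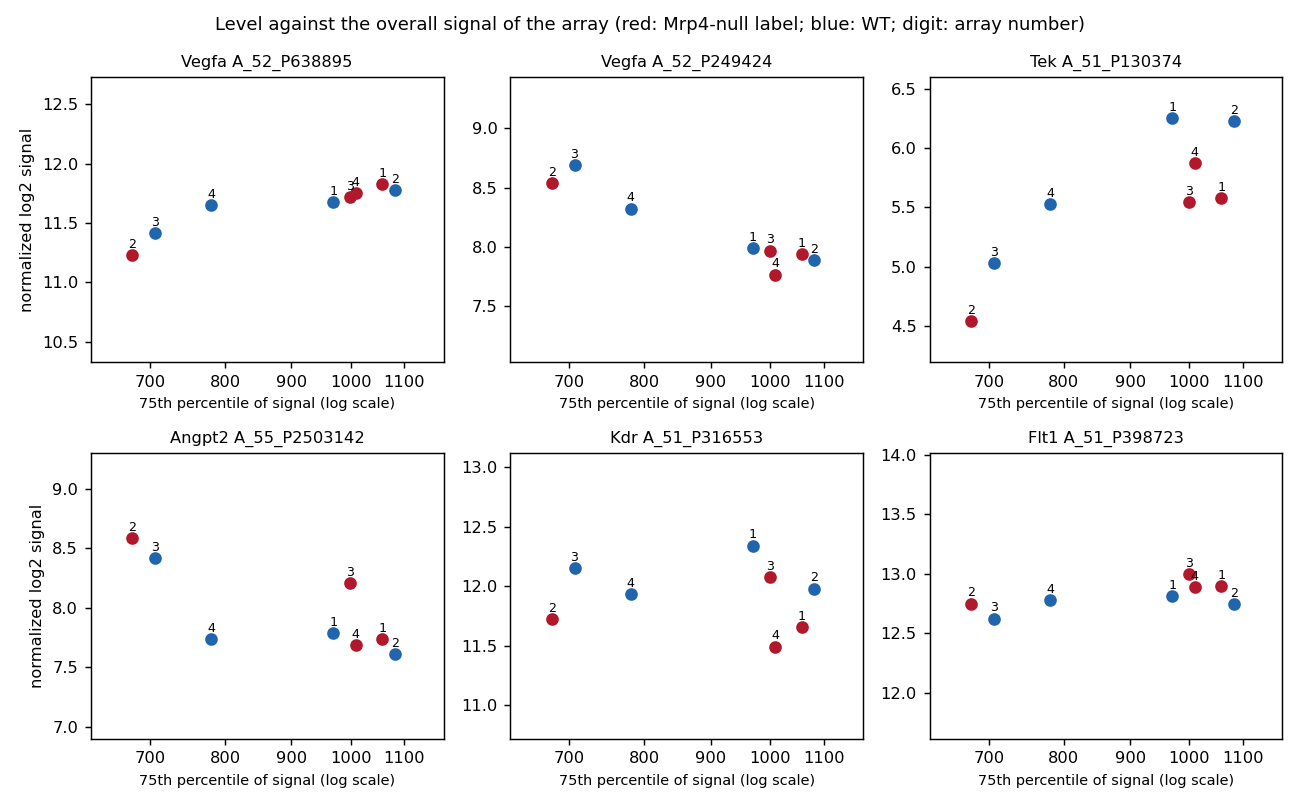
Level of 6 probes against the overall signal of the array. The horizontal axis is the 75th percentile of the processed signal on a log scale, the vertical axis is the normalized log2 signal, red points are the arrays labelled Mrp4-null, blue points are WT, and digits are array numbers. Tek and Vegfa A_52_P638895 are low and Vegfa A_52_P249424 is high on the arrays with 75th percentiles of 678 and 706, while Kdr shows no such order.

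The genes whose pattern over the 8 arrays was most like that of a member are given as a description, since the arrays share their signal and all retained probes of named genes were screened. For Vegfa A_52_P638895 they were Pdcd6ip, Arhgap42 and Frs3, with a Pearson correlation between 0.990 and 0.992. For Angpt2 they were Ly6g5b, Foxo1 and Dazap1, with a correlation between 0.992 and 0.994. Kdr was closest to Gle1 (0.986), Zswim6 (0.968) and Vamp1 (0.964), and Pdgfrb to Tcf7l2 (0.989), Atg9b (0.984) and Fbxo33 (0.979). Foxo1 also stands in the list of endothelial signaling genes described below. The lowest adjusted p of the differences of these 12 genes between labels was 0.690.

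In the rest of the 3 families no gene was called either. Of 12 further ligands and receptors, 10 were retained, 0 were called, 7 were lower and 3 higher, with a median difference of -0.02 and a range from -0.11 to 0.26. Among the ligands, the differences were 0.21 (SE 0.15) for Pgf, which binds FLT1, 0.12 (SE 0.09) for Vegfd, -0.07 (SE 0.09) for Pdgfa, -0.11 (SE 0.17) for Pdgfc and -0.06 (SE 0.23) for Pdgfd. Among the receptors and co-receptors they were -0.06 (SE 0.09) for Nrp1 and -0.03 (SE 0.07) for Nrp2, which bind VEGF beside KDR, 0.26 (SE 0.26) for Tie1, the partner of TEK, and -0.01 (SE 0.25) for Ptprb, a phosphatase that acts on TEK. Pdgfra, the receptor of astrocytes and their precursors, differed by -0.004 (SE 0.16). A second retained probe of Nrp1 gave 0.09, so that its 2 retained probes had opposite signs. The other retained probes of Nrp2 gave -0.01 and 0.04, and that of Pdgfa gave -0.15. Flt4, the receptor of VEGF-C, and the angiopoietin Angpt4 were not retained.

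Upstream of Vegfa, the hypoxia genes showed 1 call among 20 regulators and targets, all of which were retained. Adm, a vasodilator peptide induced by hypoxia, read 5.22, 5.12, 5.62 and 5.47 under the Mrp4-null label and 6.13, 6.22, 5.97 and 6.15 in WT. The labels did not overlap. Its level fell by 0.76 (SE 0.12, limma adjusted p = 0.0362). Leaving out single arrays gave differences from -0.85 to -0.68 with adjusted p from 0.0308 to 0.151, and the call was lost without any array but array 3 labelled Mrp4-null. It was also lost with the 75th percentile shift, normexp correction (-0.32), no filter on dim probes, trended and robust variances, the replicate block (adjusted p = 0.322), and both dimmest arrays left out. With the local pooled error test that the methods name, Adm differed by -0.79 (SE 0.27), which passed the methods' threshold of fold and unadjusted p but not after Benjamini-Hochberg adjustment (adjusted p = 0.346). At that threshold 1.65% of all retained probes and 0 of the 13 passed. Pfkfb3, a driver of glycolysis, had a difference of -0.21 (SE 0.09, adjusted p = 0.751), and the highest value of the list was that of Hk2, 0.23 (SE 0.17). Hif1a and Epas1, which encode the oxygen-regulated alpha subunits of the hypoxia-inducible factors, had differences of -0.04 (SE 0.10) and 0.06 (SE 0.10). The median over the list was -0.04.

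Downstream, 0 of 22 genes of endothelial signaling were called, with a median of -0.03 and a range from -0.21 for Tnip2 to 0.25 for Ptk2. Of 12 genes of tip and stalk cells, the leading and trailing cells of a sprout, 8 were retained and 0 were called, with a median of -0.02 and extremes at Hey2 (-0.24, SE 0.51) and Notch1 (0.40, SE 0.21). Notch1 passed the local pooled error test at the methods' threshold (0.62) and not after adjustment (adjusted p = 0.390). Dll4, Esm1, Aplnr and Cxcr4 were not retained. Of 12 genes of the vascular matrix and soluble inhibitors, 11 were retained and 0 were called, with a median of -0.06. Col18a1, the source of the inhibitor endostatin, was the highest at 0.52 (SE 0.20, adjusted p = 0.646), and Vasn was the lowest at -0.23 (SE 0.10). The brightest of 3 probes of Serpinf1, which encodes the inhibitor PEDF, differed by 0.02 (SE 0.10) and the next by 0.06 (SE 0.13). The dimmest was well above background on 4 arrays labelled Mrp4-null but 2 WT arrays, so no size is given for it (limma adjusted p = 0.308).

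**Figure D4:**
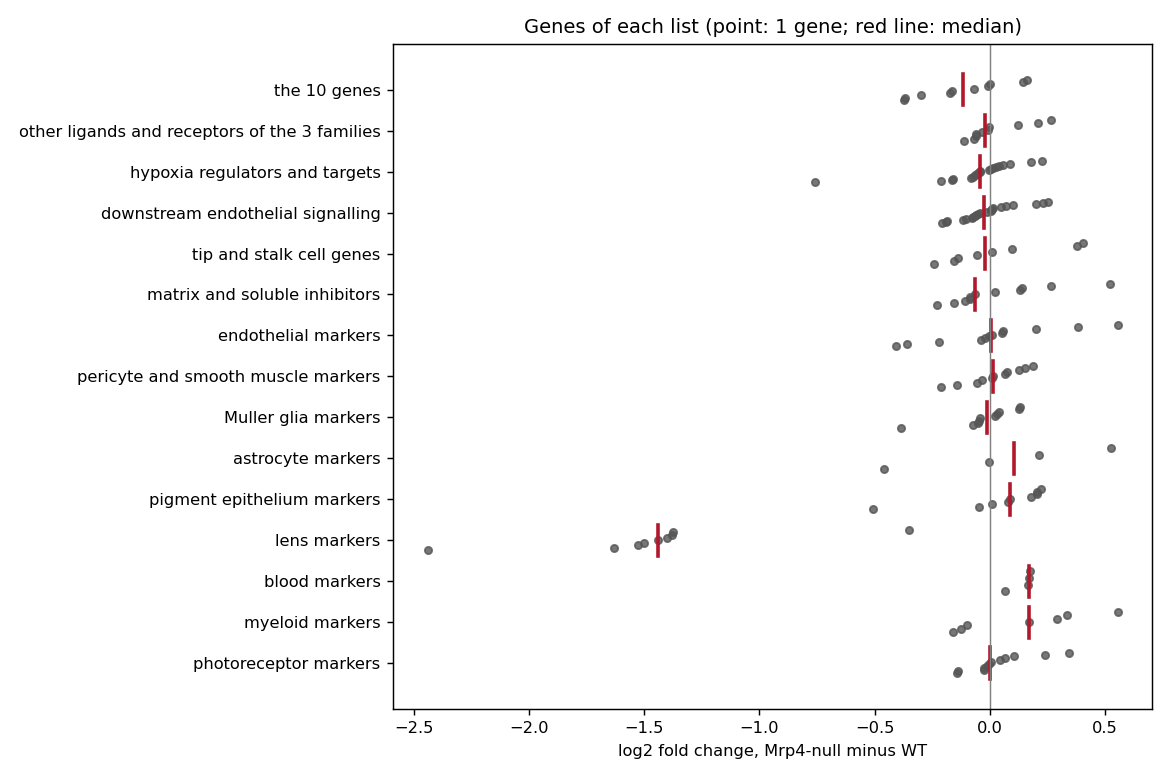
Difference between labels for the genes of each list, 1 probe per gene. The horizontal axis is the log2 fold change, Mrp4-null minus WT, each point is a gene and red lines are medians. The 10 genes have a median of -0.12, the vascular lists lie near 0, and the lens markers lie at -1.44, with Mip, the lowest of them, not well above background on 2 of 8 arrays.

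No marker of the cells that carry these receptors was called. All 12 endothelial markers were retained and 0 were called, with a median of 0.003 and a range from -0.41 to 0.56, 6 lower and 6 higher. Their mean level was between 7.96 and 8.25 on arrays labelled Mrp4-null and between 8.03 and 8.23 in WT. Emcn, a sialomucin of venous and capillary endothelium, had a difference of -0.41 (SE 0.14, adjusted p = 0.571), and Cldn5, a tight junction protein, one of -0.22 (SE 0.09, adjusted p = 0.679). Ly6c1 went the other way, with 0.56 (SE 0.13, adjusted p = 0.169) by its brighter probe and 0.58 (SE 0.10, adjusted p = 0.0496) by its other probe, just under the fold required, and the labels did not overlap for either. Of 12 pericyte and smooth muscle markers, 11 were retained and 0 were called, with a median of 0.02 and extremes at Acta2 (-0.21, SE 0.18) and Anpep (0.19, SE 0.49). Anpep was dim, well above background on 3 arrays labelled Mrp4-null and 4 WT arrays.

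The level of each receptor was set against the mean of the markers listed for its cell type over the 8 arrays. Levels within a list were unlike, as in the pericyte and smooth muscle list, where WT means were 15.53 for Vtn and 4.89 for Cspg4. Whether these markers and receptors were specific to those cells in this tissue was not tested. Kdr, Flt1 and Tek had a Pearson r of 0.0372, 0.348 and 0.397 with the endothelial markers (Spearman rho 0.167, 0.119 and 0.167), and Pdgfrb had an r of 0.0457 with the pericyte and smooth muscle markers (rho 0.310). None of the 4 passed an exact two-sided permutation test, with p from 0.331 to 0.931 for r and from 0.462 to 0.793 for rho, and 0.798 or more and 0.793 after Benjamini-Hochberg adjustment over the 4. Without the 2 arrays farthest from the median of the marker mean, r was 0.237, 0.315, 0.327 and 0.665. With the mean of each label removed, r was 0.142 for Kdr, 0.386 for Flt1, 0.459 for Tek and 0.0716 for Pdgfrb, and an exact permutation within labels gave p from 0.299 to 0.872 (0.792 or more after adjustment over the 4).

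Other retinal and ocular cells were compared for the same arrays. Of the Muller glia markers, 10 of 10 were retained and 0 were called, with the lowest at Aqp4 (-0.39, SE 0.11, adjusted p = 0.362) and the highest at Clu (0.13, SE 0.10). Astrocyte markers ranged from S100b (-0.46, SE 0.10, adjusted p = 0.139) to Gfap (0.53, SE 0.37), and pigment epithelium markers from Pmel (-0.51, SE 0.24) to Rpe65 (0.22, SE 0.22). The photoreceptor markers had a median of 0.002, with Nr2e3 the lowest (-0.14, SE 0.13) and Arr3 the highest (0.34, SE 0.08, adjusted p = 0.192).

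Lens markers were lower under the Mrp4-null label for 9 of 9 retained genes, with 0 called and a median of -1.44, and 8 were called by the local pooled error test with adjusted p, against 0.647% of all retained probes. The mean log2 level of the list overlapped between labels, from 6.22 to 8.87 on single arrays under the Mrp4-null label and from 7.58 to 10.10 in WT. Mip was measured above background by 4 WT arrays but 2 arrays with the Mrp4-null label, so no size is given for it. It was kept through WT alone and counts in the 9, in the median and in the 8. The differences of the other 8 genes ran from Lim2 (-1.63, SE 0.81) to Crygd (-0.35, SE 0.30), and Bfsp1 (-1.53, SE 0.55) and Bfsp2 (-1.38, SE 0.37) had an unadjusted p under 0.05. The blood markers, of which 4 of 7 were retained, spanned 10.95 to 11.89 and 10.92 to 11.86 in WT, with differences between 0.07 for Alas2 and 0.18 for Hba-a2. The myeloid markers, 7 of 8 retained, spanned 7.72 to 8.59 and 7.80 to 7.92 in WT, with differences between -0.16 for P2ry12 and 0.56 for Cd68. The part of these cells in the values of the 10 genes was not tested.

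Angpt2 lies on chromosome 8 near genes that were called, while Angpt2 itself was not. Among the 10 nearest tested genes on each side, 5 of 20 had a called probe, against 0.652% of all named genes with a retained probe, and 4 of 20 were called by their brightest probe. Next to Angpt2, Agpat5, an enzyme of phospholipid synthesis, fell by 0.61 (SE 0.09, adjusted p = 0.0206) by its brightest probe and its other probe differed by -2.91 (SE 0.09, adjusted p = 5.25e-06), and 3 genes away on the other side Myom2, a muscle structural protein, rose by 3.73 (SE 0.16). Nek5, a kinase gene 9 genes away, was well above background on 4 WT arrays and 0 arrays labelled Mrp4-null. It was at least 4.47-fold lower under the Mrp4-null label, set against the lowest signal well above background on each array. Its limma adjusted p of 2.02e-05 is that of the difference and not of this bound, and it used values not well above background. Nek5 was kept through WT alone and counts in the 5 and the 4 of 20. Nek5 and Nek3 (-1.62, SE 0.08), a kinase gene 10 genes away, were named after their values had been seen, as was Kbtbd11, 5 genes away, whose brightest probe differed by -0.24 (SE 0.08, adjusted p = 0.517) and whose other probe differed by -2.13 (SE 0.24, adjusted p = 0.00549). Between these, Mcph1 differed by 0.25 (adjusted p = 0.705), Csmd1 by -1.18 (adjusted p = 0.0705), Defb14 by -0.20 and Gm15319 by 0.46 (adjusted p = 0.106).

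Of the other genes, the surroundings of Vegfc and Tek alone were examined. Around Vegfc, also on chromosome 8, 0 of 20 genes had a called probe, with Tenm3, Gm19744 and Aga on one side and Spcs3, Wdr17 and Gpm6a on the other between -0.11 and 0.05. Around Tek on chromosome 4, likewise 0 of 20 had one, with Gm12657, Ift74, Lrrc19, Eqtn, Mysm1 and Jun between -0.10 and 0.24. Abcc4 lies on chromosome 14, which holds none of the 10 genes. Kdr and Flt1 are on chromosome 5, Angpt1 and Pdgfb on 15, Vegfa on 17, Pdgfrb on 18 and Vegfb on 19.

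**Figure D5:**
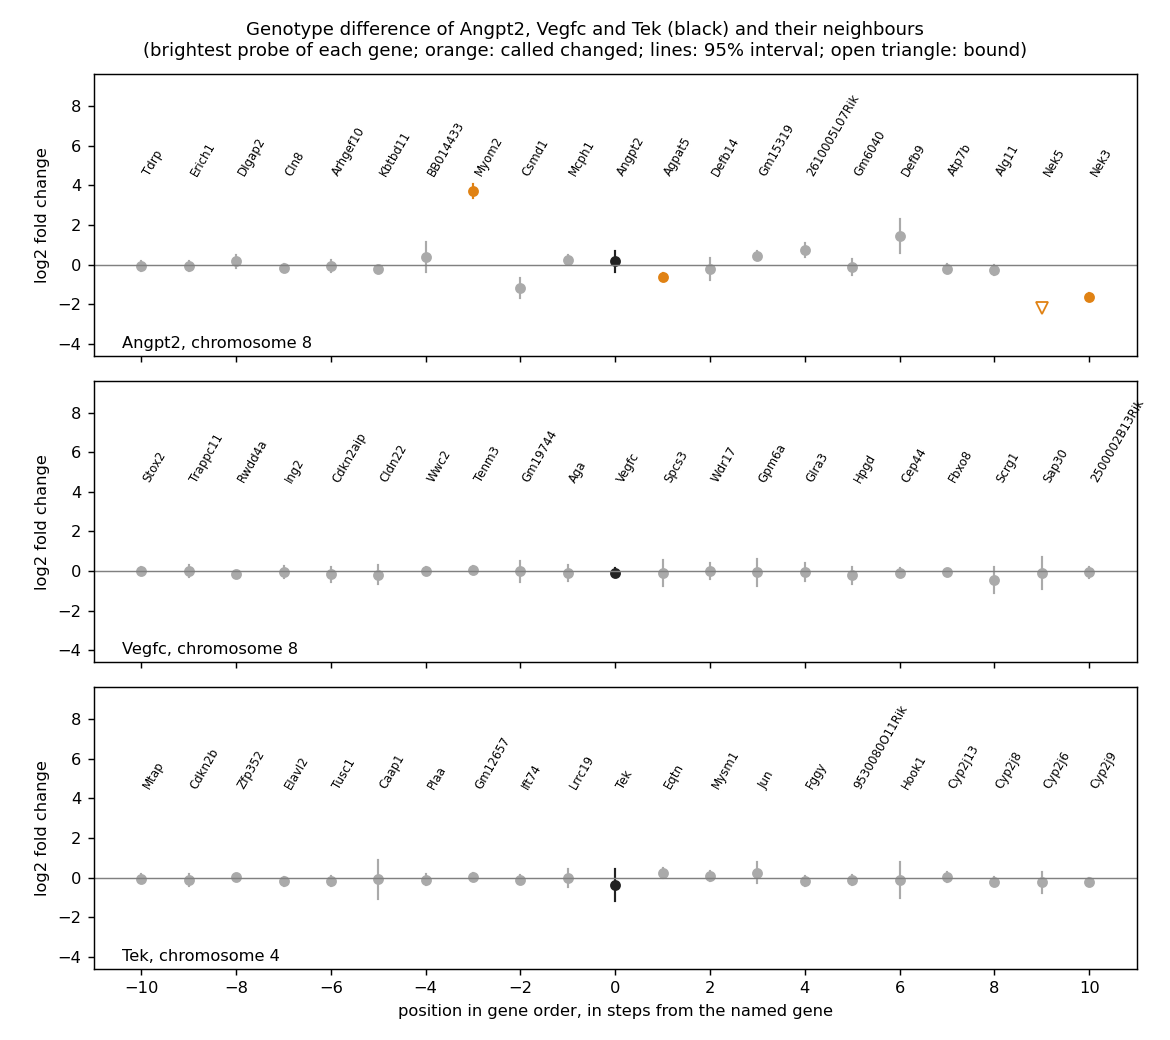
Difference between labels for Angpt2, Vegfc and Tek (black) and the 10 nearest tested genes on each side, each by its brightest probe. The horizontal axis counts genes in chromosomal order, the vertical axis is the log2 fold change, Mrp4-null minus WT, lines are 95% intervals, orange marks are called genes and the open triangle of Nek5, not well above background under the Mrp4-null label, is a bound. Near Angpt2, 4 genes are called, with Myom2 at 3.73 the highest, and near Vegfc and Tek 0 are.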

How the data were processed

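The authors deposited the scanner output of 8 arrays, made with Agilent Feature Extraction 11.0.1.1 per the submitters' processing notes. Each spot has a processed signal intensity, already background-subtracted and detrended within its array, with no normalization across arrays. A matrix of values was deposited too, equal to the processed intensity averaged by probe and without a log2 transformation. Of the 62976 spots per array, controls and outlier spots (78 to 143 per array) were dropped. Averaging the log2 intensity by probe gave 56605 probes, of which 32994 (58.3%) were matched to a gene by accession. A probe was kept if the measured arrays of either label were all well above background (37085 probes, 23651 of them named for 16093 genes), and kept values were quantile-normalized. Labels were compared with limma 3.58.1 (lmFit, eBayes) in R 4.3.3 with statmod 1.5.0, and Benjamini-Hochberg adjustment ran over all kept probes. The scripts were tested on simulated data.

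Alternatives included the 75th percentile shift, cyclic loess, normexp correction (offset 50, on median signals), other filters, outlier spots kept, the deposited matrix, the methods' local pooled error test (bins of 0.01 of the values, spline of 10 degrees of freedom), trended and robust variances, sample number as a block, single arrays left out and other thresholds. The log2 75th percentile as a covariate and leaving out both dimmest arrays were chosen after seeing the data, as were the unadjusted threshold of the methods for the local pooled error test, the slope on that percentile and the correlations with label means removed. The members and gene lists were chosen with earlier results of these data known. The genes named are all probes of the 10 genes, all further ligands and receptors, in other lists the called genes, those with an unadjusted p under 0.05 and both extremes, Abcc4, the 3 most alike genes of 4 members, and up to 3 tested neighbors a side. The array design uses an older build than the reference gene names (GRCm38.p6), so the probes have no coordinates here. The number of arrays limits the precision.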

Additional observations from a re-analysis of the deposited data

Results flagged for a closer look

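In 54 sets of 4 arrays of 1 label, the gap between the highest or lowest array and its nearest neighbor was taken as a share of the whole range. The share passed Dixon's 95% limit in 5 sets, where chance gives about 1 in 20. Vegfa A_51_P482552 passed under the Mrp4-null label (share 0.840), with array 2 at 8.78 and the others between 9.09 and 9.14. Vegfc A_51_P433870 passed under the same label (share 0.919), again through array 2, at 7.44 against 7.81 to 7.84, and this array had the lowest overall signal of the 8. The mean of the blood markers passed in WT (share 0.888), with array 1 at 11.86 and the others between 10.92 and 11.03, and so did the mean of the photoreceptor markers (share 0.874), with array 1 at 16.05 and the others between 15.93 and 15.94. The mean of the myeloid markers passed under the Mrp4-null label (share 0.842), with array 3 at 8.59 and the others between 7.72 and 7.86.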

How the results depend on the processing

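No probe of the 10 genes was called under any alternative that used the fold and adjusted p thresholds, and their lowest adjusted p was between 0.169 (75th percentile as a covariate) and 1.00 (local pooled error test). At an unadjusted p under 0.05 and any fold, 2 of 13 probes and 2395 of all probes passed (1305 higher, 1090 lower), and under the alternatives 0 to 3 member probes passed, 0 of them without WT array 3 or without both dimmest arrays. The count over all retained probes was 202 (95 higher, 107 lower), 71 with the replicate block (30 higher, 41 lower) and 128 without both dimmest arrays (56 higher). Leaving out single arrays gave 117 to 188 (58 to 89 higher, 59 to 99 lower), with 117, 129 and 131 without WT arrays 4, 3 and 2. Same-numbered samples did not deviate together (correlations -0.29, -0.69, 0.03 and 0.41), so the numbers were not taken to pair the samples, and 0 member probes were called with the block.

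Differences near 0 changed sign. Vegfa A_52_P638895 was -0.0277 with the 75th percentile shift, -0.00404 with normexp, -0.0560 with the covariate and -0.0704 to 0.136 with single arrays left out. Vegfb was 0.0152 with the local pooled error test, 0.0119 with the covariate and -0.0539 to 0.0410 with single arrays left out. Vegfc was 0.0394 with the local pooled error test, 0.00744 without both dimmest arrays and -0.108 to 0.0260 with single arrays left out, and Angpt2 was -0.0163 to 0.339. The slope on the signal turned to -0.127 for Angpt1 with the percentile shift and, without both dimmest arrays, to -0.163 for Vegfa A_51_P482552, 0.230 for Vegfb, -0.0816 for Flt1 and -0.360 for Pdgfrb, and that of Kdr was -0.0913 to 0.159 with single arrays left out. The number of member slopes that passed was 0 with no filter and without both dimmest arrays, and 0 to 4 with single arrays left out. The r of Pdgfrb with its markers was -0.215 with the percentile shift, -0.142 with normexp, -0.188 with the stricter filter, -0.0664 without both dimmest arrays and -0.154 to 0.480 with single arrays left out. Without both dimmest arrays r was -0.180 for Kdr and -0.0657 for Tek, and with single arrays left out it was -0.138 to 0.330 for Kdr, -0.0143 to 0.573 for Flt1 and -0.0804 to 0.682 for Tek.

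Among the lists, the 1 hypoxia call (Adm) became 0 with the percentile shift, normexp, no filter, the local pooled error test with adjusted p, trended and robust variances, the block, both dimmest arrays left out, and 7 of the 8 single arrays left out (0 to 1). The lens list had 8 calls with the local pooled error test, adjusted or not, Mip among them, and 1 with the covariate. At the methods' own threshold, a fold of 1.5 and unadjusted p of that test, which was added after seeing the data, Adm remained called, the tip and stalk list had 1 call (Notch1), and 613 of all probes (322 higher, 291 lower) and 0 member probes passed. The median of endothelial signaling was -0.0507 with the percentile shift and -0.0313 to -0.00111 with single arrays left out, and that of the matrix list was -0.144 to 0.0878. The cause of these changes was not tested. With 4 arrays per label, the intervals of Kdr, Pdgfrb, Angpt2 and Tek did not exclude a 1.5-fold change.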
